A study of Mus musculus with 14 samples.

Results

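Integrins are surface receptors made of an α and a β chain, through which lymphocytes hold on to other cells and to the matrix and enter tissues. The α4 chain (Itga4) pairs with β1 (Itgb1) to bind VCAM-1 on inflamed vessels and with β7 (Itgb7) to bind MAdCAM-1 in the gut, αE (Itgae, CD103) pairs with β7 to bind E-cadherin on epithelium, and αL (Itgal) pairs with β2 (Itgb2) to form LFA-1. The αv chain (Itgav) pairs with β8 (Itgb8) on Tregs, where the dimer releases active TGF-β from its latent form. ATAC-seq counts the cuts that a transposase makes in open chromatin, so counts rise with the accessibility of a region and measure neither RNA nor protein.

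The 8 integrin loci were examined in bulk ATAC-seq libraries of splenic central Tregs (cTregs) and effector Tregs (eTregs). A region was assigned to a locus if its midpoint was nearest to the start of that gene among all protein-coding starts, or lay within its gene body. This gave 91 of the 67254 accessible regions of the deposited table: 8 for Itgae, 3 for Itgal, 24 for Itga4, 13 for Itgav, 19 for Itgb1, 8 for Itgb2, 4 for Itgb7 and 12 for Itgb8. Of the 91, 46 were assigned by the nearest start alone, 5 by the gene body alone and 40 by both. Counts were high enough for testing in 85 of the 91. The other 6, of which 5 belong to Itga4 and 1 to Itgb8, had mean counts per library between 2.29 and 6.71.

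Bone marrow (BM) from Foxp3 Cre Atg14 +/fl (control) or Foxp3 Cre Atg14 fl/fl (Atg14-deficient) mice, all CD45.2+, was mixed in equal parts with CD45.1+ wild-type BM. The mix was given to sublethally irradiated Rag1-/- hosts, which lack mature T and B cells of their own. After 6 to 8 weeks, CD45.2+ CD4+ Foxp3-YFP+ cells were sorted from the spleen as cTregs or eTregs by surface markers, CD44 among them, which was low on cTregs and high on eTregs. Both genotypes carry the Cre recombinase, which is driven by Foxp3, the factor that defines Treg cells, and the controls carry a single floxed allele. According to the study's methods, some of its Atg14 fl/fl mice also carried a deleted Atg14 allele, and which libraries this touches is not given in the sources used here. Control libraries numbered 3 of each cell state, and Atg14-deficient libraries 4 of each, for 14 in all. Both states were sorted from 3 control and 4 Atg14-deficient chimeras. That libraries of the same number came from the same chimera is not stated in the sources used here, so the main fit does not pair them and a fit with the replicate number as a block within each genotype stands beside it.

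Total counts were between 2242983 and 5548189 per library, and values are given below as CPM, the count of a region per 1000000 counts of its library. Promoter regions of the cTreg markers Ccr7 and Satb1 had group means of 30.2 and 75.5 CPM in control cTregs, 37.3 and 70.1 in Atg14-deficient cTregs, 11.1 and 47.3 in control eTregs, and 19.5 and 46.0 in Atg14-deficient eTregs. In the same order of groups the Tcf7 promoter had 7.02, 5.83, 1.69 and 1.64 CPM, while Lef1 had 49.3, 46.5, 42.5 and 48.6 CPM and hardly separated the states, and of the eTreg markers Prdm1 (58.2, 56.6, 61.1 and 59.2 CPM), Maf (105, 104, 111 and 119) and Tigit (74.7, 74.1, 70.3 and 87.6) had similar means. The Icos promoter had a lower mean in eTregs (31.9, 38.8, 19.8 and 22.9 CPM), against its use as an eTreg marker, and Klrg1 was low throughout (0.80, 2.46, 2.79 and 3.76 CPM). The table has no promoter region for Foxp3, Ikzf2 or Cd4. The promoters of Il2ra, Ctla4 and Cd3e summed to 68.7 to 111 CPM in cTreg and 56.8 to 76.4 CPM in eTreg libraries. Of the markers of other cells, no region lay at a promoter of any of 5 B cell and 3 neutrophil markers. The summed promoters of Cd8b1 and Eomes, taken as CD8 T cell markers, held 24.4 to 39.3 CPM in cTreg libraries and 13.6 to 21.6 CPM in eTreg libraries, so they moved with cell state. Promoters of 2 of 3 NK cell markers summed to 1.78 to 17.6 and 9.01 to 28.8 CPM in the cTreg and eTreg libraries, those of 2 of 5 macrophage and monocyte markers to 4.90 to 14.4 and 7.48 to 24.3, those of 2 of 4 dendritic cell markers to 4.89 to 16.1 and 11.9 to 26.7, and that of 1 of 4 erythroid markers to at most 5.65 CPM. The part of any of these in the state differences below was not tested, and a bulk library cannot tell fewer open cells from less open chromatin per cell. Of 7 regions at Atg14, none passed the adjusted threshold between genotypes, and counts over open regions do not measure the deletion of the floxed exon.

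Integrin genes differed in where their chromatin was open. A promoter region (within 1000 bp of the gene start) was found for every gene except Itgae. Levels can be set side by side only per length, and on that scale (CPM per kb of region, mean ± SD over 14 libraries) the Itgav and Itgb8 promoters had the highest mean levels at 87.5 ± 8.76 and 74.5 ± 10.2, with overlap between libraries. The Itga4 and Itgb2 promoters were at 51.9 ± 8.55 and 51.9 ± 12.6 and cannot be ordered. The strongest promoter region of Itgb7 was at 35.8 ± 13.4, that of Itgb1 at 30.5 ± 5.25 and that of Itgal at 26.9 ± 6.09, values whose spreads overlap. Itgae had only distal regions, and the highest of its 8 lay 47.8 kb inside the gene at the start of Haspin, a kinase gene nested in an Itgae intron.

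Regions of Itga4 and Itgb8 at which the cell states differed are shown first as sequence, since they lie far from the promoters and carry the differences described below. Each is the plus strand of GRCm38 from RefSeq, cut to the central 300 bases where the region is longer. Capitals mark matches on either strand to a fixed set of motif letters, which in these windows were TGTGGT (RUNX), TGTTTAC (forkhead) and CTTTGAA (TCF/LEF), or their reverse complements.
Itga4, 134.3 kb upstream, chr2:79120957-79121256: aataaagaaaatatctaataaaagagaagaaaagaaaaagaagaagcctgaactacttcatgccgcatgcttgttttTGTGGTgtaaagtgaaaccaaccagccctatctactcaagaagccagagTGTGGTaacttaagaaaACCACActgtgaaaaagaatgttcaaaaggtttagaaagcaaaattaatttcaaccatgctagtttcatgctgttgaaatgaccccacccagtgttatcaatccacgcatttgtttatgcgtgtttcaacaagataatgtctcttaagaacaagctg
Itga4, 127.9 kb upstream, chr2:79127438-79127694: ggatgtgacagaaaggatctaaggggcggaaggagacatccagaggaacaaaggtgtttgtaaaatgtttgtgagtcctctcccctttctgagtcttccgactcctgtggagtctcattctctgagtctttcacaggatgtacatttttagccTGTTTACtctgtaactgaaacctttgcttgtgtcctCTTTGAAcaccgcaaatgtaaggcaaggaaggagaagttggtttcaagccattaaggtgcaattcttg
Itga4, 24.1 kb upstream, chr2:79231173-79231472: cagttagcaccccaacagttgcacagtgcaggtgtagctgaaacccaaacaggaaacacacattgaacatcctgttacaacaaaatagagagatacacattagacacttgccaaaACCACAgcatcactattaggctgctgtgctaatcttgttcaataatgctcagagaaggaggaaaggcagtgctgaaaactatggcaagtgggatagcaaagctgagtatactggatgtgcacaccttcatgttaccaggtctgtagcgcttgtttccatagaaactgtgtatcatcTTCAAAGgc
Itga4, 6.9 kb upstream, chr2:79248347-79248646: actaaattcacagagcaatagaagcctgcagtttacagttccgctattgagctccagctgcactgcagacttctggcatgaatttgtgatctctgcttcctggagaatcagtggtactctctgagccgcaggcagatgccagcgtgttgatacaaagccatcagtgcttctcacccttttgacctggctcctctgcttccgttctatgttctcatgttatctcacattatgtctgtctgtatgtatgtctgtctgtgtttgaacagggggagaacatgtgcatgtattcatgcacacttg
Itgb8, 90.3 kb downstream of the start, chr12:119147864-119148163: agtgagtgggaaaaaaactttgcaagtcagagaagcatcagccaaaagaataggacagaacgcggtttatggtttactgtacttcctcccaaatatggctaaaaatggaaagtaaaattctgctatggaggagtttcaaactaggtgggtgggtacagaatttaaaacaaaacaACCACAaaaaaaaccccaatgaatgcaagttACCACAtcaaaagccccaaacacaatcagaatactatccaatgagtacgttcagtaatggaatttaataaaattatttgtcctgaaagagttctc

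The 300-base window 134.3 kb upstream of Itga4 held 3 RUNX matches, whereas that at 6.9 kb held none of the letters searched. Over all 91 integrin regions, RUNX letters were in 36.3%, AP-1 letters (TGANTCA) in 18.7%, TCF/LEF letters (CTTTGAA or CTTTGAT) in 11.0% and forkhead letters in 6.59%. The shares over all regions of the table on chromosomes were 33.4%, 17.1%, 14.7% and 5.58%, at a median length of 325 bp against 344 bp for the integrin regions. ETS letters (CCGGAAG) were in 3.30% of integrin regions and 7.88% of all, STAT letters (TTCNNNGAA) in 9.89% and 11.3%, KLF letters (GGGTGTGG) in 5.50% and 5.18%, and NF-kB letters (GGGANTTCC) in 1.10% and 2.76%. A match is a description of these letters and not a bound site.

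To ask which integrin regions separate the cell states, control eTregs were compared with control cTregs. About as large a share of integrin regions as of all regions was called. The calls were 2 regions upstream of Itga4 and 1 downstream of Itgb8, less accessible in control eTregs, and 1 Itgae intron, more accessible. No promoter passed the test. With edgeR's quasi-likelihood test and a log2 fold change beyond 0.5, 4 of 85 integrin regions passed an adjusted p of 0.05. This is 4.71%, near the 5.30% of all 61366 tested regions that passed. Of the 4, 1 was higher (1.18% against 2.01% of all regions) and 3 were lower in eTregs (3.53% against 3.29%). With the replicate block 11 passed, the same 4 and 7 more, with 4 higher (4.67% of all regions passed in that direction) and 7 lower (5.70%). The median log2 fold change was -0.03 over the integrin regions and -0.01 over all tested regions. Without control cTreg 2 these medians were 0.15 and 0.02, and without control cTreg 1 they were -0.11 and -0.01.

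Among Atg14-deficient libraries, which share no library with the control comparison, 5 of 85 integrin regions passed, or 5.88% against 9.81% of all regions. All 5 were lower in eTregs (5.88% against 5.40%) and none was higher (against 4.41%), although 6 were higher at an unadjusted p under 0.05 (7.06% against 11.4% of all regions). Whether called or not, 53 of the 85 regions had a positive value (62.4%, against 51.7% of all regions), with a median of 0.13 against 0.02. The median was 0.06 against 0.03 without Atg14-deficient eTreg 3, and 0.23 against 0.02 without Atg14-deficient eTreg 2. The 5 were 4 distal regions of Itga4 and 1 intronic region of Itgb8. In this genotype, cTreg and eTreg libraries of the same number deviated together weakly (r from 0.117 to 0.239). With the replicate number as a block 12 regions passed, 4 higher (7.63% of all regions passed in that direction) and 8 lower (7.84%). The block kept all 5 calls and added 3 lower and 4 higher regions, the latter being 2 at Itgav, 1 at Itgb1 and 1 at Itgb8. The number called higher was 0 under DESeq2's Wald test (5.38% of all regions in that fit), 1 in a fit of only the 2 groups (4.10%), and 2 without control cTreg 3 (4.84%) or Atg14-deficient cTreg 4 (6.23%). Without the block, a single region, 127.9 kb upstream of Itga4, passed in both genotypes, as did 3.30% of all regions. With it 7 did, against 6.44% of all regions, of which 5 lay at Itga4, 1 at Itgav and 1 at Itgb8. Across the 85 regions, 60 had the same direction in both genotypes (70.6%, against 73.3% of all tested regions), and the fold changes had a Pearson r of 0.707, against 0.682 over all tested regions. Regions share libraries and neighbours, so these are descriptions.

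**Figure D1:**
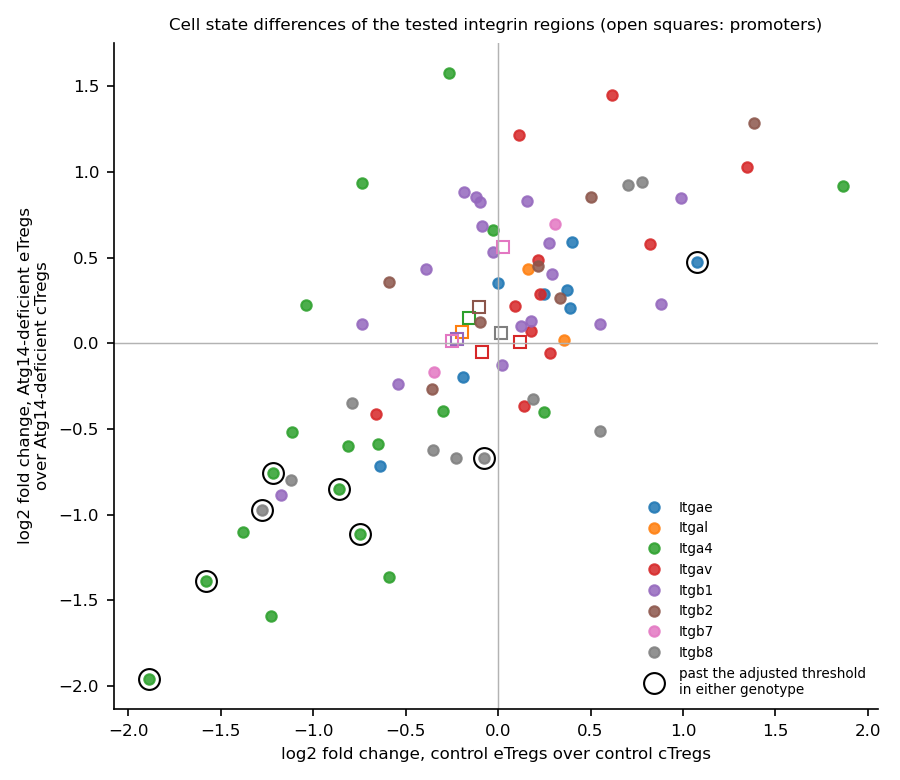
Log2 fold change of each of the 85 tested integrin regions between eTregs and cTregs, in control libraries (x axis) and Atg14-deficient libraries (y axis), coloured by gene, with open squares for promoter regions and black rings for regions past the adjusted threshold in either genotype. The ringed Itga4 and Itgb8 regions lie at the lower left or below 0, the ringed Itgae region lies at the right, and the promoter squares lie near 0 except that of the stronger Itgb7 promoter region, at 0.56 in Atg14-deficient libraries.

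At Itga4, whose α4 chain serves homing through both β1 and β7, the calls lay in distal regions and the promoter did not pass the test. The promoter region (chr2:79254601-79255994) had 75.8, 73.2 and 59.3 CPM in control cTregs, 71.4, 75.9, 74.1 and 70.7 CPM in Atg14-deficient cTregs, 53.3, 66.1 and 67.6 CPM in control eTregs, and 74.9, 102, 87.1 and 61.6 CPM in Atg14-deficient eTregs. These ranges overlap. Its log2 fold change between the states was -0.16 ± 0.16 (SE) in control and 0.15 ± 0.14 in Atg14-deficient libraries, with adjusted p-values of 0.627 and 0.517. Of the 18 tested distal Itga4 regions, 16 had a negative value in control libraries and 13 in Atg14-deficient libraries, with median log2 fold changes of -0.78 and -0.59. Over all tested regions 49.2% and 51.7% of values were positive, with medians of -0.01 and 0.02.

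The region 134.3 kb upstream of Itga4 had 17.6, 15.8 and 15.2 CPM in control cTregs and 7.81, 6.30 and 6.85 CPM in control eTregs. Every control eTreg library was thus below every control cTreg library, with a log2 fold change of -1.22 ± 0.30 and an adjusted p of 0.0156. Atg14-deficient cTregs had 17.6, 11.7, 16.8 and 16.7 CPM and Atg14-deficient eTregs 6.59, 7.53, 10.3 and 12.3 CPM. These groups overlap by a single library on each side, and the difference of -0.76 ± 0.26 missed the adjusted threshold (adjusted p = 0.0583) but passed with the replicate block (-0.78 ± 0.25, adjusted p = 0.0269). The control call was lost without control cTreg 1, control eTreg 2 or control eTreg 3, at adjusted p-values between 0.0515 and 0.0800.

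The region 127.9 kb upstream of Itga4 was called in both genotypes without any block. It had 6.35, 6.22 and 8.47 CPM in control cTregs and 3.25, 2.89 and 1.08 CPM in control eTregs (log2 fold change -1.58 ± 0.47, adjusted p = 0.0432). Atg14-deficient cTregs had 9.24, 8.56, 12.4 and 5.78 CPM and Atg14-deficient eTregs 3.60, 4.60, 3.71 and 2.05 CPM (-1.39 ± 0.39, adjusted p = 0.0224). All 7 eTreg libraries were below all 7 cTreg libraries. In control libraries the call was lost in 8 of 14 fits that left out a library, namely each control library and Atg14-deficient cTreg 1 or 3 (adjusted p 0.0515 to 0.196), and in a fit of only the 2 groups (0.0667). In Atg14-deficient libraries it was lost without Atg14-deficient cTreg 3 (adjusted p = 0.108) or eTreg 4 (0.0842).

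Between these regions, 131.0 kb upstream, lay a region that was not called in either genotype. It had 29.3, 26.8 and 23.2 CPM in control cTregs and 24.1, 26.8 and 42.9 CPM in control eTregs, which overlap. In Atg14-deficient cells it had 31.9, 34.3, 30.0 and 26.0 CPM in cTregs and 22.8, 24.3, 25.4 and 20.0 CPM in eTregs, with every eTreg library below every cTreg library. The state difference was 0.25 ± 0.22 in control and -0.40 ± 0.19 in Atg14-deficient libraries, and neither passed (adjusted p 0.573 and 0.185).

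Closer to the Itga4 start, the region 24.1 kb upstream had 14.2, 15.1 and 14.3 CPM in control cTregs and 7.16, 7.35 and 9.19 CPM in control eTregs. Atg14-deficient cTregs had 15.1, 20.2, 18.9 and 11.6 CPM and Atg14-deficient eTregs 9.59, 9.20, 9.53 and 8.22 CPM. All eTreg libraries were below all cTreg libraries, and the log2 fold changes were nearly equal, at -0.86 ± 0.29 in control (adjusted p = 0.0767, called with the replicate block at 0.0369) and -0.85 ± 0.25 in Atg14-deficient libraries (adjusted p = 0.0295). The latter call was lost without Atg14-deficient cTreg 2 or 3 or eTreg 1, 3 or 4, at adjusted p-values of 0.0518 to 0.101.

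The region 6.9 kb upstream of Itga4 had the largest state difference of the locus. Control cTregs had 5.87, 1.91 and 11.6 CPM and control eTregs 1.95, 1.57 and 1.44 CPM, so that the second cTreg library fell within the eTreg range. Atg14-deficient cTregs had 6.72, 8.56, 14.2 and 4.50 CPM and Atg14-deficient eTregs 2.40, 4.18, 2.12 and 0.51 CPM, which do not overlap. The log2 fold changes were -1.89 ± 0.62 (adjusted p = 0.0713, called with the replicate block at 0.0299) and -1.96 ± 0.53 (adjusted p = 0.0170), and the call was lost without Atg14-deficient cTreg 3 (0.111) or eTreg 4 (0.0687). The region 82.1 kb upstream was also called in Atg14-deficient libraries (-1.12 ± 0.36, adjusted p = 0.0433). There, the cTregs had 12.6, 13.2, 16.8 and 7.07 CPM and the eTregs 4.79, 11.3, 5.29 and 2.57 CPM, so the groups overlap. That call was lost in 8 of 14 fits without a library, namely control cTreg 1, control eTreg 1, Atg14-deficient cTreg 1, 2 or 3 and eTreg 1, 3 or 4 (adjusted p 0.0517 to 0.170), and in a fit of only the 2 groups (0.0629).

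The states were then compared with both genotypes averaged, a contrast chosen after the data were seen. Of the 85 integrin regions, 15 were lower in eTregs (17.6% against 10.5% of all regions) and 6 were higher (7.06% against 8.40%). Itga4 held 10 of the 15 lower regions, 8 upstream and 2 in the gene body, at log2 fold changes between -1.93 and -0.62. A single Itga4 region was higher, 11.9 kb inside the gene (1.39 ± 0.44, adjusted p = 0.0214). It had 0.98, 1.44 and 2.68 CPM in control cTregs and 6.51, 6.82 and 4.51 CPM in control eTregs, which do not overlap. Atg14-deficient cTregs had 4.20, 0, 1.05 and 3.85 CPM there and Atg14-deficient eTregs 3.00, 3.77, 5.29 and 4.88 CPM, which overlap (0.92 ± 0.57, adjusted p = 0.313). Near it, an intronic region 14.9 kb inside the gene was lower in all 7 eTreg libraries than in all 7 cTreg libraries (-1.24 ± 0.28, adjusted p = 0.00227). With the replicate block both regions passed in controls alone (adjusted p = 0.0487 and 0.0324), and the second also in Atg14-deficient libraries (0.0307). Summed over its 24 regions, the Itga4 locus had 233 ± 18.3 CPM (SD, n = 3) in control cTregs, 255 ± 19.2 (n = 4) in Atg14-deficient cTregs, 175 ± 20.0 (n = 3) in control eTregs and 205 ± 23.4 (n = 4) in Atg14-deficient eTregs. Of the 8 loci it had the largest difference between the states, -0.36 on the log2 scale. Its sums were 214 to 251 CPM and 155 to 195 CPM in control cTregs and eTregs, and 231 to 278 CPM and 174 to 229 CPM in Atg14-deficient cTregs and eTregs, so the states did not overlap within a genotype. The other calls of the averaged comparison were spread over 5 genes: 3 lower and 1 higher at Itgb8, 2 higher and 1 lower at Itgav, 1 higher at Itgae, 1 higher at Itgb2 and 1 lower at Itgb1, with none at Itgal or Itgb7.

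**Figure D2:**
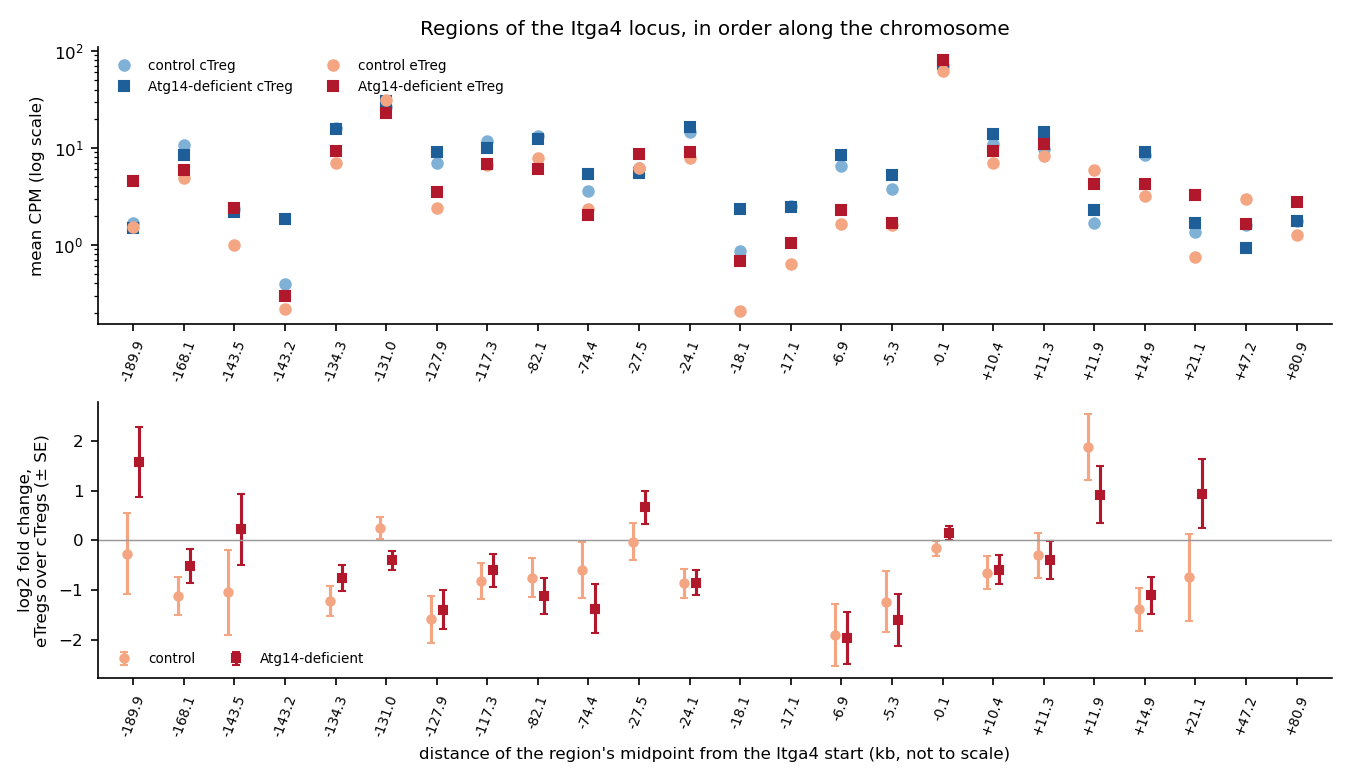
Top, mean CPM (log scale) of each of the 24 Itga4 regions in the 4 groups, ordered by distance of the region's midpoint from the Itga4 start in kb. Bottom, log2 fold change between eTregs and cTregs with its SE in each genotype for the 19 tested regions. The promoter at -0.1 kb is the highest region and lies near 0 in both genotypes, while the regions at -134.3, -127.9, -24.1 and -6.9 kb lie below 0 in both.

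At Itgb8, the partner of αv in TGF-β activation, the promoter (chr12:119237760-119238998) had 88.5, 116 and 92.7 CPM in control cTregs and 112, 92.9 and 97.7 CPM in control eTregs. It differed by 0.02 ± 0.14 between these states (adjusted p = 0.966) and by 0.06 ± 0.13 in Atg14-deficient libraries (0.802). The distal region 90.3 kb downstream of the start, beyond the gene's end, had 11.5, 10.5 and 13.4 CPM in control cTregs and 2.60, 5.77 and 5.77 CPM in control eTregs. Atg14-deficient cTregs had 5.88, 8.56, 12.1 and 7.71 CPM and Atg14-deficient eTregs 3.60, 3.35, 5.29 and 5.14 CPM. All eTreg libraries were below all cTreg libraries. The log2 fold change was -1.28 ± 0.38 in control (adjusted p = 0.0420) and -0.97 ± 0.34 in Atg14-deficient libraries (0.0662, called with the replicate block at 0.0465), and the control call was lost without any 1 of the 6 control libraries (adjusted p 0.0535 to 0.195).

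An intronic Itgb8 region, 33.7 kb downstream of the start, was called in Atg14-deficient libraries only. It had 37.8, 33.5, 40.5 and 33.7 CPM in Atg14-deficient cTregs and 18.6, 32.6, 19.3 and 22.1 CPM in Atg14-deficient eTregs, which do not overlap (-0.67 ± 0.19, adjusted p = 0.0219). In control libraries it had 33.2, 33.5 and 25.0 CPM in cTregs and 26.0, 28.1 and 33.2 CPM in eTregs, which overlap (-0.08 ± 0.21, adjusted p = 0.885). The difference between the genotypes in this effect was -0.59 ± 0.28 (edgeR's quasi-likelihood test, adjusted p = 1.00), so a difference between genotypes was not shown. The Atg14-deficient call was lost without Atg14-deficient cTreg 1 or 3 or eTreg 1, 3 or 4 (adjusted p 0.0516 to 0.0838). An Itgb8 intron 7.5 kb from the start went the other way, with every eTreg library above every cTreg library. In edgeR's test its difference was 0.70 ± 0.37 in control and 0.92 ± 0.33 in Atg14-deficient libraries (adjusted p 0.291 and 0.0717). With genotypes averaged it was 0.81 ± 0.25 (adjusted p = 0.0188). The replicate block called it in Atg14-deficient libraries (0.94 ± 0.34, adjusted p = 0.0478).

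At Itgae, the chain of CD103, the called region lay in an intron 40.6 kb from the gene's start and 7.1 kb from that of Haspin. It had 6.84, 5.74 and 8.02 CPM in control cTregs and 11.1, 15.7 and 15.9 CPM in control eTregs, with no overlap (1.08 ± 0.33, adjusted p = 0.0496). Atg14-deficient cTregs had 8.40, 7.79, 9.99 and 15.4 CPM and Atg14-deficient eTregs 16.2, 13.4, 10.1 and 18.5 CPM, which overlap (0.47 ± 0.28, adjusted p = 0.286). The control value sits at the threshold, and the call was lost in 10 of 14 fits without a library: each control library, Atg14-deficient cTreg 1 or 3 and eTreg 1 or 4 (adjusted p 0.0502 to 0.154). It was also lost without the filter on low counts (0.0520) and in a fit of only the 2 groups (0.0522).

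**Figure D3:**
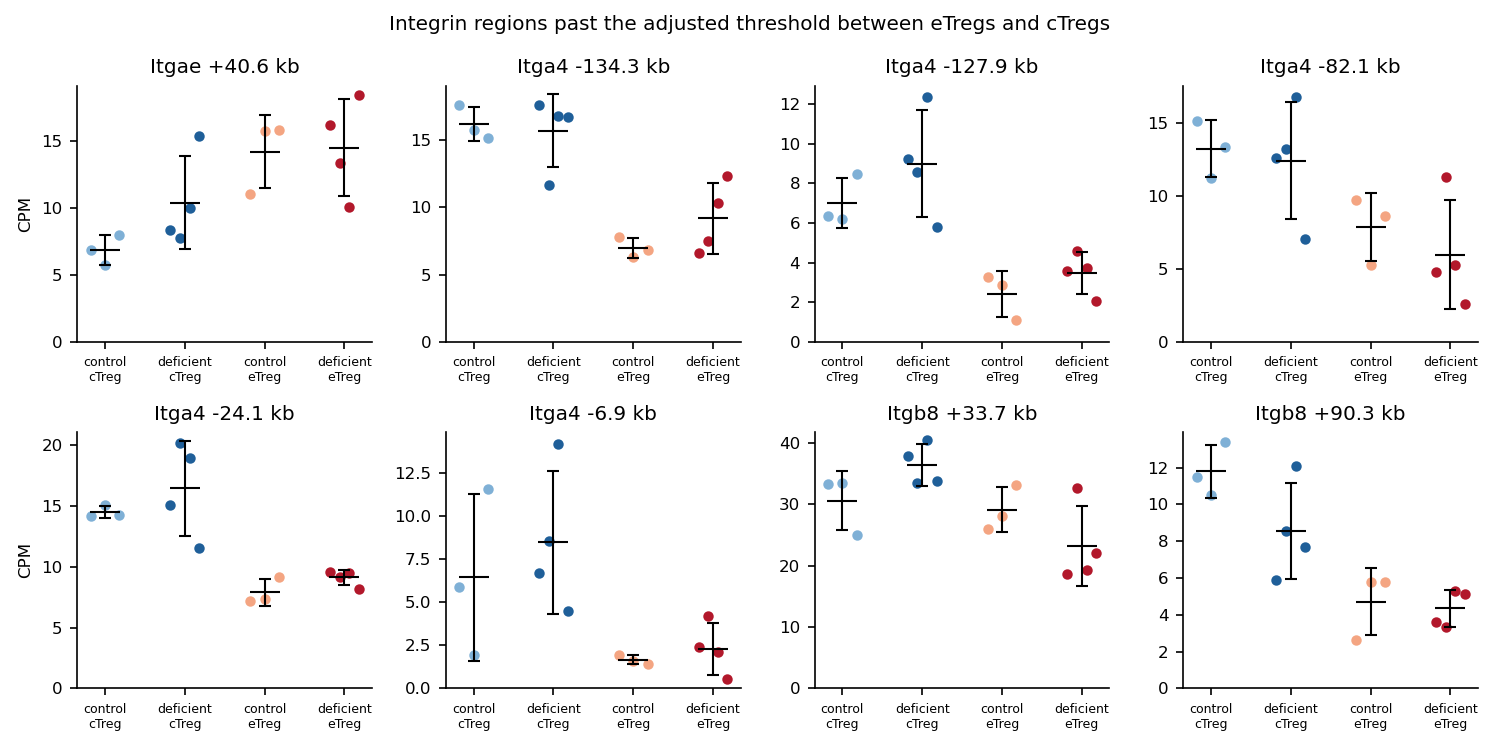
CPM of each library (points) with the group mean and SD (bars) for the 8 integrin regions past the adjusted threshold between eTregs and cTregs in either genotype. In the Itga4 panels at -127.9 and -24.1 kb and the Itgb8 panel at +90.3 kb all 7 eTreg libraries lie below all 7 cTreg libraries, and the Itgae panel rises from cTregs to eTregs in controls.

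Itgav, the α chain of the TGF-β-activating dimers, had no call in either genotype alone without a block. Its promoter had group means between 76.9 and 87.8 CPM and log2 fold changes between the states of -0.09 ± 0.13 and -0.05 ± 0.12. The region 28.8 kb upstream had 33.2, 37.6 and 11.6 CPM in control cTregs and 51.4, 57.5 and 42.2 CPM in control eTregs, where every eTreg library was above every cTreg library (0.82 ± 0.27, adjusted p = 0.0713). Atg14-deficient cTregs had 26.0, 28.0, 17.4 and 25.4 CPM and Atg14-deficient eTregs 40.2, 37.7, 25.9 and 39.8 CPM, which overlap (0.58 ± 0.24, adjusted p = 0.127, but 0.0134 with the replicate block). The control value passed without control cTreg 2 (1.10, adjusted p = 0.0244), with DESeq2's size factors (0.0443), in DESeq2's Wald test (0.0305) and with either replicate block (0.00641 and 0.000504), and with genotypes averaged it was 0.70 ± 0.18 (adjusted p = 0.00717). An intronic Itgav region, 38.0 kb inside the gene, rose in the averaged comparison as well (1.19 ± 0.30, adjusted p = 0.00631), from 5.28 ± 4.34 CPM in control cTregs (n = 3) to 14.3 ± 4.96 CPM in control eTregs (n = 3), and passed in controls alone with the replicate block (adjusted p = 0.0347).

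The β1 and β2 chains, the αL chain and β7 had no region past the adjusted threshold in either genotype alone, except that the replicate block called a region 149.8 kb upstream of Itgb1 higher in Atg14-deficient eTregs (0.63 ± 0.21, adjusted p = 0.0317). The region 30.8 kb upstream of Itgb1, which had the smallest p of that gene in controls, had 7.82, 6.46 and 4.46 CPM in cTregs and 3.90, 2.10 and 2.52 CPM in eTregs (-1.18 ± 0.55, adjusted p = 0.227). An intronic Itgb2 region, 10.5 kb inside the gene, had 0.98, 2.15 and 0.45 CPM in cTregs and 4.23, 3.15 and 2.88 CPM in eTregs (1.39 ± 0.72, adjusted p = 0.288). The smallest adjusted p of Itgal was 0.567 in controls, at a region 10.9 kb upstream, and 0.25 in Atg14-deficient libraries, 8.1 kb upstream. That of Itgb7 was 0.592 in controls, at an intronic region 6.5 kb inside the gene, and 0.192 in Atg14-deficient libraries, at the promoter region 0.9 kb from the start. The promoter regions of these genes had log2 fold changes between control eTregs and cTregs of -0.22 ± 0.21 for Itgb1, -0.10 ± 0.26 for Itgb2, -0.19 ± 0.29 for Itgal and 0.03 ± 0.33 for the stronger of the Itgb7 pair, and the last value and that of Itgb2 change sign when single libraries are left out.

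**Figure D4:**
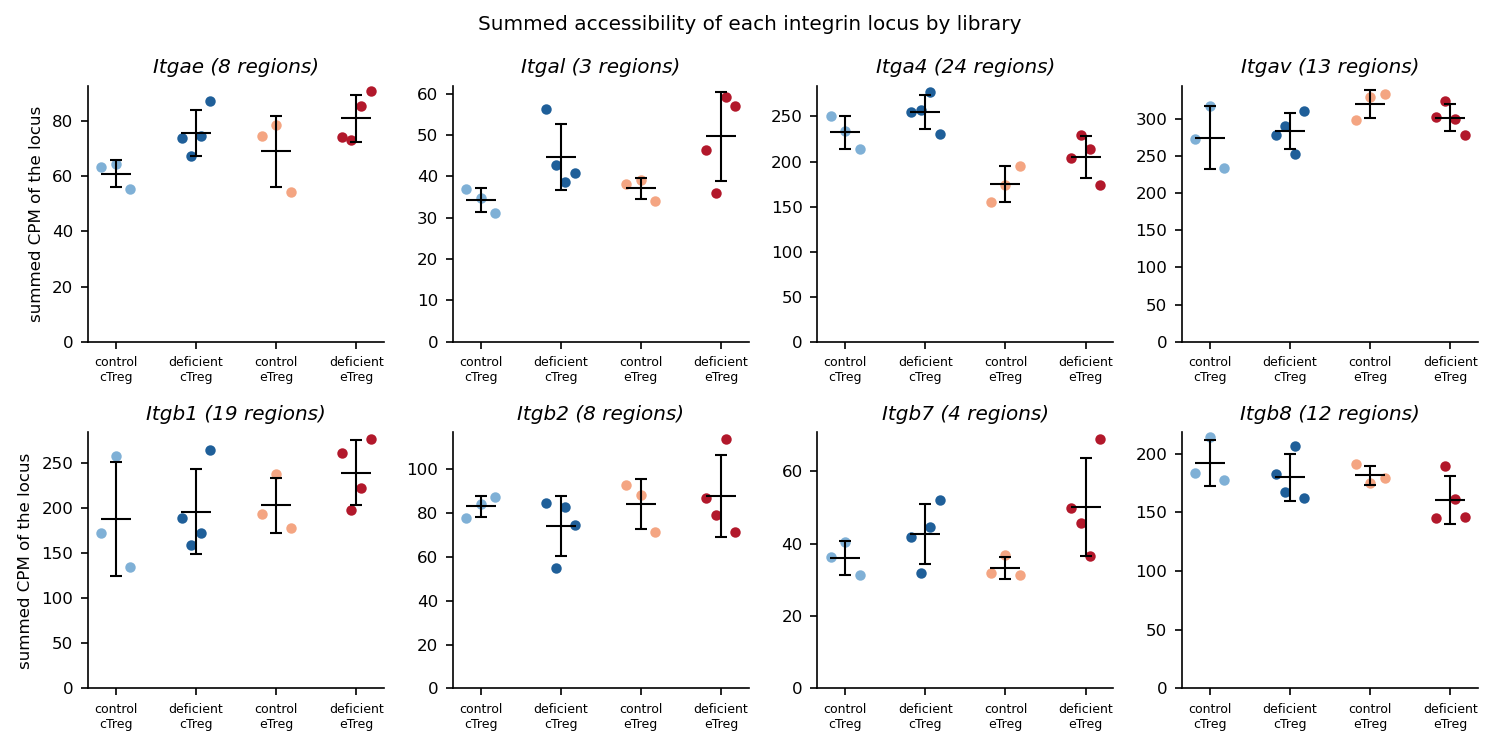
Summed CPM of all regions of each integrin locus in each library (points), with the group mean and SD (bars), for the 4 groups. The Itga4 mean is 233 CPM in control cTregs and 175 CPM in control eTregs, while the libraries of the other loci overlap more closely.

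The second question was whether loss of Atg14, a subunit of the Vps34 lipid kinase complex that acts in autophagy, alters these loci within a cell state. No integrin region passed the adjusted threshold in eTregs, as against 0.0228% of all regions in edgeR's test, and DESeq2's Wald test also called 0. At an unadjusted p under 0.05, 6 of 85 regions were higher in Atg14-deficient eTregs (7.06% against 4.59% of all regions) and 1 was lower (1.18% against 1.77%). The fold change was positive for 63 of the 85 integrin regions (74.1%, against 56.2% of all), with a median of 0.20 against 0.06. The medians were 0.157 against 0.0088 under TMM and 0.15 against 0.0093 under loess offsets. The unadjusted split of 6 higher and 1 lower became 6 and 3 under TMM and 2 and 2 without control eTreg 3. Over all regions and in either direction, 3902 of 61366 passed in the main fit. This became 3792 under TMM, and 3375 of 63245 without control eTreg 3. Positive values numbered 8 of 8 at Itgae, 18 of 19 at Itgb1 and 4 of 11 at Itgb8. The Itgae regions include that at the Haspin start, and some Itgb1 regions lie nearly as close to Nrp1 (161.0 and 165.6 kb away in 1 case). These tallies depend on the scaling, since under TMM they were 7, 15 and 2, and 53 of the 85 (62.4%, against 50.9% of all).

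The 3 regions with the smallest p in eTregs lay at Itgb1, Itgal and Itgb7. The region 161.0 kb upstream of Itgb1, in the interval towards Nrp1, had 4.23, 2.10 and 3.97 CPM in control and 8.39, 7.11, 10.3 and 7.45 CPM in Atg14-deficient eTregs (1.27 ± 0.44, adjusted p = 0.457). The region 8.1 kb upstream of Itgal had 13.7, 11.0 and 9.73 CPM and 16.2, 18.4, 22.0 and 18.0 CPM (0.71 ± 0.26, adjusted p = 0.487). The stronger promoter region of Itgb7 had 10.4, 15.2 and 8.47 CPM and 15.6, 19.2, 15.9 and 27.2 CPM (0.79 ± 0.30, adjusted p = 0.511). In all 3, every Atg14-deficient eTreg library was above every control eTreg library. The regions were chosen by p in this same comparison, so the separation follows largely from the choice and adds no evidence. Even the unadjusted threshold was missed at Itgal without control eTreg 3 (0.60) and at Itgb7 without control eTreg 3 (0.60) or Atg14-deficient eTreg 4 (0.57). The other unadjusted calls were the Itgb7 start itself (0.76 ± 0.32), an Itga4 intron 21.1 kb inside the gene (1.95 ± 0.78) and a region 189.9 kb upstream of Itga4 (1.56 ± 0.74), which were higher, and an Itgb8 intron 50.2 kb from the start (-1.25 ± 0.61), which was lower, with adjusted p-values from 0.542 to 0.624.

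In cTregs, no integrin region passed the adjusted threshold (0.0163% of all regions did, and DESeq2's Wald test called 0 integrin regions). A single integrin region passed the unadjusted threshold (1.18% against 3.34% of all regions). This region, 90.6 kb upstream of Itgb1, had 0.98, 1.91 and 2.68 CPM in control and 4.62, 4.28, 3.68 and 3.53 CPM in Atg14-deficient cTregs (1.16 ± 0.55, adjusted p = 1.00). It missed the unadjusted threshold, at values of 0.83 to 1.23, without control cTreg 1 or 2 or Atg14-deficient cTreg 1, 2 or 3. The next regions by p were the Itgae intron at 40.6 kb (0.63 ± 0.32) and an Itgav intron at 30.1 kb (-1.15 ± 0.63), and edgeR's adjusted p was 1.00 for both. The difference between the genotype effects of eTregs and cTregs passed the adjusted threshold at 0 integrin regions and at 0% of all regions, with DESeq2's Wald test at 0 as well. At the unadjusted threshold it passed at 2 integrin regions (2.35% against 3.05% of all), the Itga4 region 131.0 kb upstream (-0.65 ± 0.29, adjusted p = 1.00) and the Itgb8 intron at 33.7 kb given above, and these were lost in 5 and 8 of 14 fits without a library. The former was -0.34 without control eTreg 3, whose 42.9 CPM lay above every other library.

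**Figure D5:**
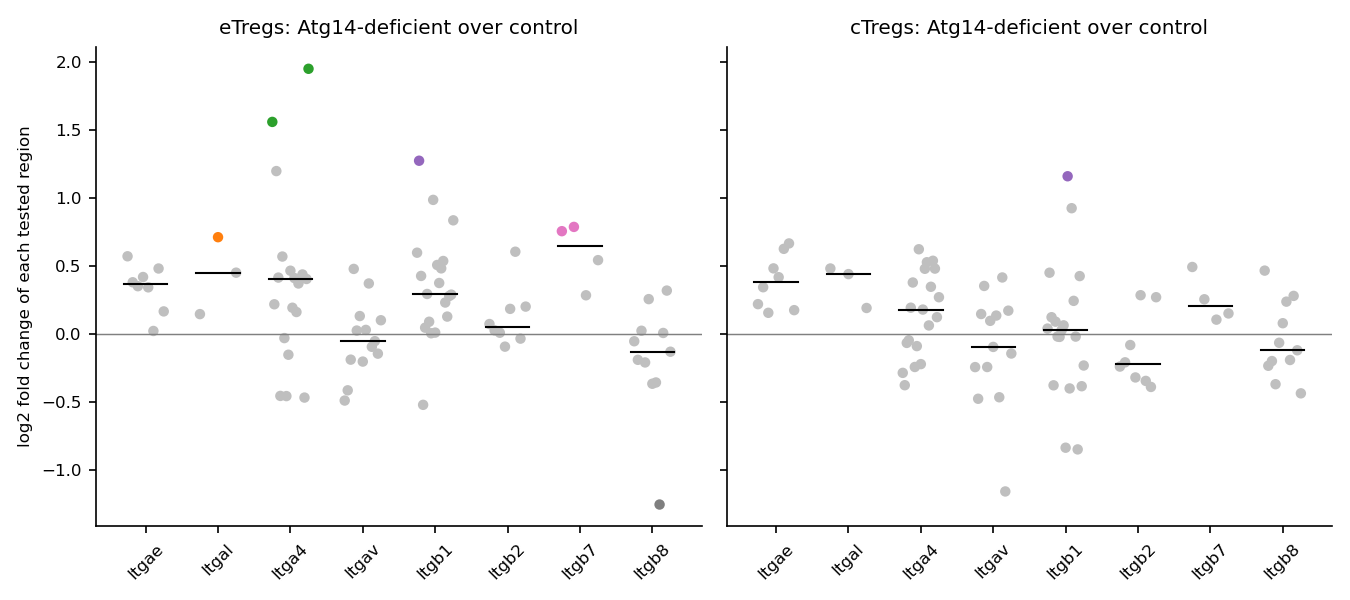
Log2 fold change between Atg14-deficient and control libraries of each tested integrin region, by gene, in eTregs (left) and cTregs (right), with the gene's median as a black line. Coloured points pass an unadjusted p of 0.05 with a log2 fold change beyond 0.5 (7 in eTregs and 1 in cTregs), grey points do not, and none passes after adjustment.

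Genes that work with these integrins were read from 3 lists by nearest start. Among 18 other integrin subunits, 3 of 96 tested regions passed between control eTregs and cTregs, 2 higher and 1 lower (3.12%, against 5.30% of all regions). Both higher regions belong to Itga1, the collagen-binding α1 chain, 5.7 kb upstream (6.87 ± 6.28 CPM in control cTregs, 22.8 ± 6.39 CPM in control eTregs, n = 3 each) and 4.8 kb inside the gene (2.04 ± 2.01 and 13.6 ± 4.64 CPM, n = 3 each). Their log2 fold changes were 1.66 ± 0.42 and 2.64 ± 0.68 in controls (edgeR adjusted p 0.0224 and 0.0276) and 1.49 ± 0.38 and 2.60 ± 0.59 in Atg14-deficient libraries (0.0154 and 0.00877). The lower region lies 28.0 kb upstream of Itga6, the laminin-binding α6 chain (-1.83 ± 0.51, adjusted p = 0.0336).

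Among 28 genes of integrin activation and its adaptors, 20 of 231 tested regions passed in controls, 3 higher and 17 lower in eTregs (8.66%, against 5.30% of all regions, of which 2.01% higher and 3.29% lower). The 2 lower regions with the smallest p lay 52.3 kb upstream of Apbb1ip, which encodes the Rap1 effector RIAM (62.2 ± 6.04 CPM in control cTregs, 33.7 ± 5.45 CPM in control eTregs, n = 3 each), and 6.2 kb inside Cytip, a cytohesin-binding regulator of LFA-1 adhesion (36.2 ± 2.98 and 17.2 ± 1.25 CPM, n = 3 each). Of the 3 higher regions, 2 were at -70.5 kb from the start of Rap1b, a small GTPase that switches integrins on (1.12 ± 0.32, adjusted p = 0.0363) and 1.2 kb inside Sipa1, which inactivates Rap1 (1.78 ± 0.52, adjusted p = 0.0382). Among 18 ligands and partners, 9 of 107 tested regions passed, 2 higher and 7 lower (8.41%, against the same 5.30%). Lrrc32, which encodes GARP, the protein that presents latent TGF-β to αvβ8, had a lower region 73.2 kb from its start (19.6 ± 2.94 CPM in control cTregs, 6.39 ± 2.18 CPM in control eTregs, n = 3 each) and a higher region 8.8 kb upstream (1.40 ± 0.40 and 6.13 ± 1.67 CPM, n = 3 each). In Atg14-deficient libraries the lower region passed as well (-1.48 ± 0.25, adjusted p = 0.000533) and the other did not (3.62 ± 2.03 CPM in cTregs, 4.73 ± 2.37 CPM in eTregs, n = 4 each, adjusted p = 0.610). Cd47, an integrin-associated protein, likewise had both a lower region (15.6 kb upstream) and a higher region (114.7 kb downstream of its start). In Atg14-deficient libraries, the lists had 7 higher and 6 lower (13.5%), 5 higher and 16 lower (9.09%) and 3 higher and 11 lower regions (13.1%), beside 9.81% of all. Between genotypes, edgeR's test called 0 regions of the 3 lists after adjustment. At the unadjusted threshold, 5 of 96, 25 of 231 and 6 of 107 regions were higher and 1 of each list was lower in Atg14-deficient eTregs, against 4.59% and 1.77% of all regions. In Atg14-deficient cTregs, 4, 5 and 4 were higher and 3, 1 and 0 lower, against 3.34% of all regions in either direction. The median log2 fold changes between the states were 0.25, -0.23 and -0.12 in controls, beside -0.01 over all tested regions.

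The summed accessibility of Itga4 was most like that of Zc3h12d, St6gal1, Tox, Dach2 and Gpr174 among 14833 other protein-coding genes. Their Pearson r with Itga4 over the 14 libraries was between 0.925 and 0.965. These correlations rest on the same libraries, in which the cell state and the total count vary, and are given as a description.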

How the data were processed

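Chromatin accessibility was measured by bulk ATAC-seq in 14 libraries of sorted Treg cells. According to the study's methods, the authors trimmed and aligned the reads, shifted them for Tn5, kept nucleosome-free fragments, called peaks per sample with MACS2, merged the peaks that recurred among replicates, and deposited raw counts per region and library. Per the labels' processing notes, cutadapt 1.9, Picard 1.65 and MACS2 2.1.0.20150603 were used and the build was GRCm38, whereas the methods name mm9. The chromosome ends and gene starts of the deposited counts were checked against GRCm38. Between 74.7% and 87.0% of regions had even counts per library, so single counts may not be independent.

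Groups were taken from the labels. Members and gene lists were chosen with earlier results of these data known. Regions were annotated with RefSeq GRCm38.p6, and starts are printed 1-based. One edgeR 4.0.16 quasi-likelihood model (R 4.3.3, robust) of the 4 groups was fitted to all regions that passed filterByExpr, scaled by total counts, with Benjamini-Hochberg adjustment over the 61366 tested regions. A call required an adjusted p under 0.05 and a log2 fold change beyond 0.5, and unadjusted calls the same with the raw p. The pipeline was tested on simulated data. Named regions were the promoter and the smallest-p region of each gene, all called regions, and the 3 smallest-p regions of each genotype comparison. Further regions were named after their values were seen. Same-numbered cTreg and eTreg libraries deviated from their group means with r from 0.117 to 0.239 in the 4 Atg14-deficient pairs. In the 3 control pairs r was 0.053 to 0.206. Different numbers within a genotype reached at most 0.0953. Between genotypes, which share no chimera, different numbers within a cell state reached 0.2814, so a shared chimera is not shown by these values. For the regions described, values with the replicate block stand beside the main ones where they change a call. Alternatives were TMM and DESeq2 size factors, loess offsets, no filter, DESeq2 1.42.0's Wald test, fits of only the groups compared, replicate blocks, other assignment rules, a fold threshold of 1, and leaving out each library. The biological coefficient of variation was 25.6%, and total counts of 2242983 to 5548189 limit precision most at regions of few CPM. Certain marker and sequence results are not reported here.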

Additional observations from a re-analysis of the deposited data

Results flagged for a closer look

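In the region 134.3 kb upstream of Itga4, Atg14-deficient cTreg 2 had 11.679 CPM while the other 3 libraries of its group had between 16.7 and 17.6 CPM. The gap took up 0.844 of the group's range, past Dixon's critical value for 4 samples. This was the only sample set apart in this way in 68 groups tested, all of 4 Atg14-deficient libraries, and chance sets apart about 1 in 20. The control groups, of 3 libraries each, were not tested in this way.

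The state difference was more negative in Atg14-deficient than in control libraries at 2 regions by the test of the difference itself, before adjustment. At the Itgb8 intron 33.7 kb from the gene start the difference between genotypes was -0.593 on the log2 scale, and 131.0 kb upstream of Itga4 it was -0.648. In edgeR's quasi-likelihood test the adjusted p was 1.00 for both. The value at Itga4 was -0.34 without control eTreg 3.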

How the results depend on the processing

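Between control eTregs and cTregs, the 4 called integrin regions became 7 under DESeq2's Wald test, while 3251 calls over all regions became 4185. They became 1 (higher) when only gene bodies were assigned. When genotypes were averaged, an alternative chosen after the data were seen, they became 21 (24.7%, against 18.9% of all regions). In Atg14-deficient libraries the 5 became 8 under TMM and 8 under the Wald test. Over all regions 6021 calls became 6253 and 7185 in these 2 fits. The 5 became 3 at a log2 fold threshold of 1, 1 with gene bodies only and 21 when averaged. Leaving out single libraries gave 0 to 5 and 0 to 9 calls, and 1105 to 3745 and 2759 to 7417 over all regions. In controls, 1 of 3 same-numbered pairs of cTreg and eTreg libraries had r = 0.053, under 0.1, so the pairing, not shown in either genotype, is less sure there. With the replicate block within a genotype the calls were 11 (4 higher, 7 lower) in controls and 12 (4 higher, 8 lower) in Atg14-deficient libraries, and over all regions 6367 and 9495 against 3251 and 6021.

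Unadjusted genotype calls in eTregs, 7 in all, became 4 at the fold threshold of 1 and 4 with gene bodies only, and 3 to 9 without single libraries. Over all regions such calls numbered 3018 to 4865 without single libraries, against 3902 in the main fit. In cTregs the 1 call became 0 under loess offsets, in the fit of only those groups, with the replicate block across the 4 groups and with gene bodies only, and 0 to 2 without single libraries. Over all regions the first 3 of these gave 2072, 1559 and 2122 calls, against 2052 in the main fit. Fits without single libraries gave 1856 to 2731. Of 2 unadjusted calls of the difference between states, 0 passed the fold threshold of 1 and 1 passed with gene bodies only, and 0 to 4 passed without single libraries. Over all regions 1685 to 2488 passed without single libraries, against 1871 in the main fit. After adjustment all 3 of these integrin counts were 0 under every alternative run. Over all regions, DESeq2's Wald test called 48 and 16 against edgeR's 14 and 10 between genotypes, and 54.2% against 92.9% of the eTreg calls were higher (78.6% under TMM, 65.0% under loess offsets).

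Near 0, promoter values changed sign without single libraries, from -0.38 to 0.15 at Itgb2, -0.24 to 0.33 at Itgb7 and -0.062 to 0.15 at Itgb8. The causes were not tested. Each replicated group held 3 or 4 libraries, and each of the 9 calls made within a genotype was lost without at least 2 of the libraries.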
